A study of Mus musculus with 8 samples.

Results

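The genes described here are the Rab GTPases, SNAREs, vesicle coats, Vps proteins and exocyst subunits of the mouse genome that carried a value in ribosome profiling of oligodendrocyte progenitor cells (OPCs) and oligodendrocytes. They were taken by symbol. A row was a member when its symbol began with Rab, Stx, Vamp, Snap, Vps or Exoc followed by a digit, with Sec22, Sec23 or Sec24, or with Copa, Copb, Cope, Copg or Copz, and 105 of 10987 listed transcripts met this rule. The rule used no measured value, but it was chosen with earlier results of these data known. It took 40 Rab GTPases, 21 SNAREs, 22 Vps proteins, 11 subunits or partners of the COPI and COPII coats, 5 exocyst or exocyst-like genes, 5 regulators or effectors of Rabs, and Rab5if, an endoplasmic reticulum protein whose symbol matches although it is no GTPase.

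The cells came from mice of the 129S/SvEv strain and carried no stated genetic change. OPCs were derived from epiblast stem cells and kept in medium with bFGF and PDGFA. For oligodendrocytes, OPCs were first passaged in the OPC medium lacking bFGF and then differentiated in medium with thyroid hormone (T3), noggin, IGF-1, cyclic AMP and NT3. Both were collected after 3 days, frozen and lysed with emetine, and the lysates of several dishes were pooled for each culture. Of each of 2 cultures per cell type, 1 library was made from total RNA (RNA-seq) and 1 from the fragments that ribosomes shielded from micrococcal nuclease (footprints), which gave 8 libraries. The study describes some cells of the oligodendrocyte cultures as still undifferentiated OPCs, and in these bulk lysates fewer cells of a type and less RNA per cell cannot be told apart. The p-values measure the spread between 2 cultures per group.

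Membrane traffic moves lipids and proteins between compartments in vesicles. COPII coats bud vesicles from the endoplasmic reticulum and COPI coats bud them from the Golgi, Rab GTPases mark each compartment and recruit tethers such as the exocyst and the HOPS complex, and SNAREs on the vesicle and the target membrane zip together to fuse them. Vps proteins, first found in yeast mutants that missort vacuolar proteins, include the retromer, the ESCRT complexes and the tethers of endosomes and lysosomes. Oligodendrocytes extend their plasma membrane into myelin, and myelin proteins reach it through this vesicle traffic.

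Values were FPKM, fragments per kilobase of transcript (RNA-seq) or of coding sequence (footprints) scaled to the mapped reads of a library. Estimated depth ranged from 77.9 to 249 megabases of aligned sequence per library, with a possible factor of 2, and was lowest in oligodendrocyte replicate 2 in both kinds of library. That culture also listed the most members at 0, 9 in RNA-seq and 21 in footprints, against 3 to 5 and 12 to 16 in the other libraries. Of the markers, 7 of 7 tested oligodendrocyte genes rose and 2 of 2 tested proliferation genes fell in both kinds of library. The microglial markers Csf1r and P2ry12 were at 0.416 FPKM or less in every library. The summed RNA of 6 listed neuronal markers was 31.4 and 22.4 FPKM in OPCs against 70.8 and 81.9 FPKM after differentiation, most of it Tubb3 and Dcx, while Rbfox3, which defines mature neurons, was between 0.672 and 1.32 FPKM in RNA-seq and listed at 0 in every footprint library. Its part in the changes of neuron-enriched members such as Rab3a was not tested. Of 5 listed astrocyte markers, Gfap and Slc1a2 rose, Slc1a3 fell, and Sox9 and Aldh1l1 did not pass the test in RNA-seq, and their summed RNA was at 202.6 and 225.1 FPKM in OPCs against 190.0 and 165.7 FPKM. All 5 listed OPC markers had an RNA log2 fold change above 0 and 4 of them rose, Pdgfra from 53.5 and 31.3 FPKM to 105.5 and 100.6 FPKM, so that this list was not higher in the OPC cultures.

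The members took up a larger share of the summed FPKM in oligodendrocytes than in OPCs. In RNA-seq they made up 0.665% and 0.693% of the sum in OPCs and 0.981% and 0.926% in oligodendrocytes, and in footprints 0.647% and 0.735% in OPCs and 1.12% and 1.23% in oligodendrocytes. Both oligodendrocyte cultures lay above both OPC cultures in each kind of library. Of the 105 members, 96 reached the minimum mean of 1 FPKM in RNA-seq, 90 in footprints and 88 in both, and 7 reached it in neither. A member listed only in the cell type where it was high could pass this filter, so the counts below describe tested members alone.

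In the limma test across all transcripts, with a Benjamini-Hochberg adjusted p below 0.05, 25 of 96 members (26.0%) passed in RNA-seq, against 33.2% of all 8346 tested transcripts. At an unadjusted p under 0.05, 37 members (38.5%) were reached, against 45.3% of all. Of the members, 22 of 96 members (22.9%) rose in RNA-seq, against 13.0% of all, and 3 (3.12%) fell, against 20.2% of all. In footprints 23 of 90 (25.6%) rose, against 12.8% of all 8342, and 3 (3.33%) fell, against 10.8%. At an unadjusted p under 0.05, footprints gave 41 members (45.6%), against 38.0% of all. A log2 fold change above 0 was found for 67 members in footprints (74.4%, against 44.5% of all). The median log2 fold change of the members was 0.21 in RNA-seq, where that of all transcripts was -0.23, and 0.50 in footprints, where that of all transcripts was -0.16. Both oligodendrocyte cultures lay above both OPC cultures for 50 tested members in RNA-seq (52.1%, against 27.6% of all transcripts) and for 57 in footprints (63.3%, against 31.8%). They lay below both for 18 members in RNA-seq (18.8%, against 44.2%) and for 12 in footprints (13.3%, against 37.9%). The change passed both tests in the same direction for 18 members, 15 higher and 3 lower, which is 72.0% of the 25 called in RNA-seq and 69.2% of the 26 called in footprints. These were 20.5% of the 88 members tested in both kinds, near the 18.7% of all transcripts, for which the shares of calls were 54.3% in RNA-seq and 76.4% in footprints. Scaling the libraries by median ratios moved the median of all transcripts in RNA-seq by 0.18, to -0.05, and that of the members to 0.39. It moved the share of RNA-seq calls that were higher from 39.1% to 51.5% of all called transcripts.

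The counts depended on single libraries and on the variance trend. Leaving out a library leaves 1 culture in an arm, which is then assumed to vary like the other group. Without OPC replicate 1, 6 members were called in RNA-seq (5 of them higher), against 6.41% of all transcripts, and without OPC replicate 2, 3 were called, against 4.36%. In footprints 0 members passed the limma test without either OPC replicate, although 25 and 30 had an unadjusted p under 0.05. No transcript of the whole table passed there, so nothing on single members can be read from these 2 fits. Without oligodendrocyte replicate 1, 10 rose and 10 fell in RNA-seq, against 9.24% and 22.2% of all, and 19 rose and 9 fell in footprints, against 12.6% and 29.4%. Without oligodendrocyte replicate 2, 7 rose in RNA-seq, against 8.43% of all, and 5 in footprints, against 5.45%. In RNA-seq, Rab3a and Rab7b alone passed the test whichever library was left out. The RNA-seq calls of Exoc4, Rab11a, Rab15, Rab2a, Rab33b, Rab34, Rab39b, Rab3ip, Rab40c, Rab5c, Rab6b and Stx5a were lost in each of these fits (adjusted p between 0.0521 and 0.211). Of the footprint calls, those of Rab3a, Rab7b, Vamp2 and Vps37b alone were kept without oligodendrocyte replicate 2. Without the variance trend 15 members were called in RNA-seq, against 24.9% of all, and 9 in footprints, against 12.4%. With the replicate number as a block, 32 were called in RNA-seq, against 39.8% of all, of which 25 rose and 7 fell, the added falls being Rab13, Sec24d, Vps54 and Vps72.

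**Figure D1:**
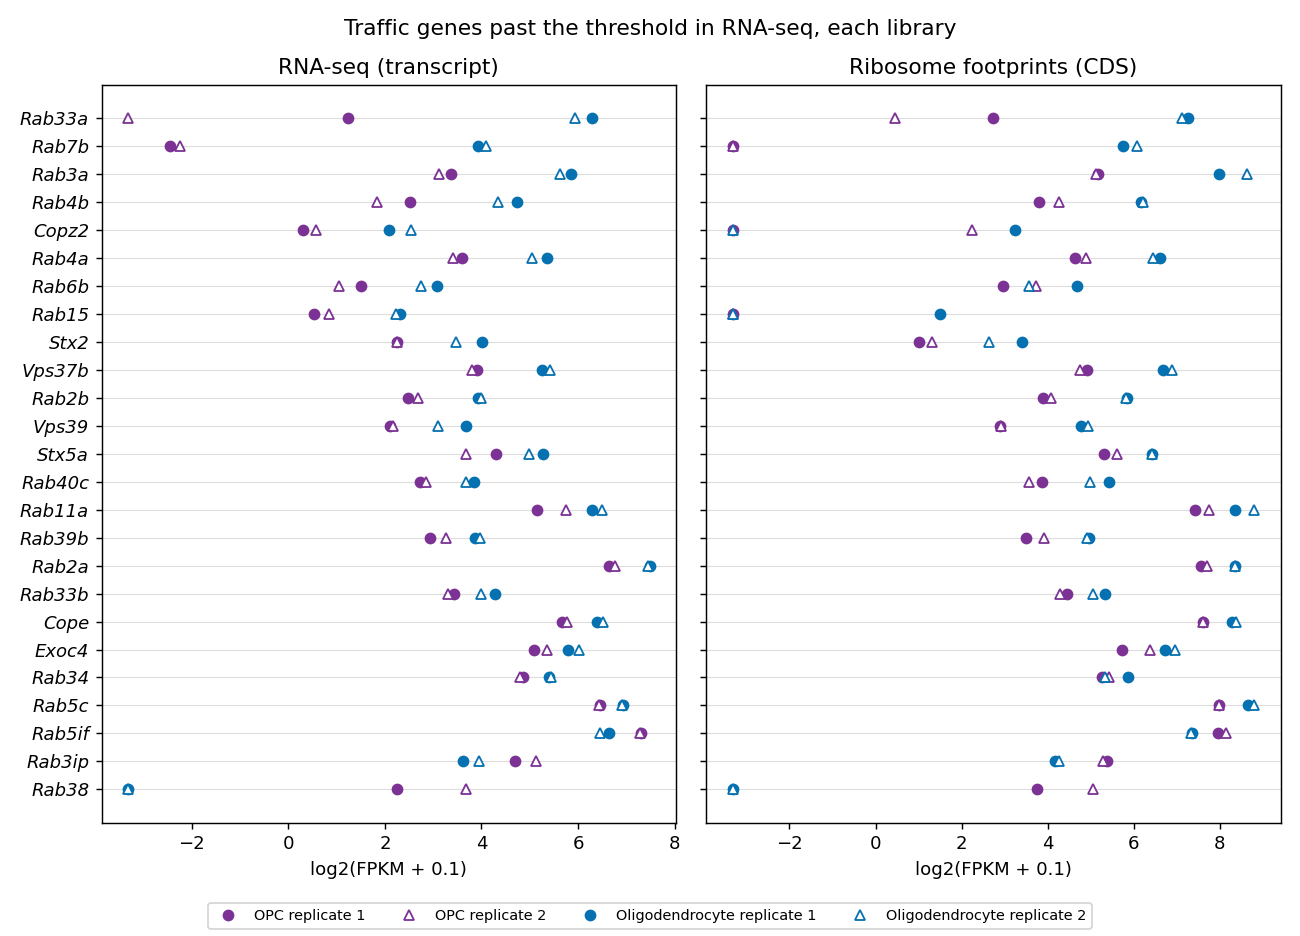
Levels of the 25 members past the threshold in RNA-seq, as log2(FPKM + 0.1) in each library of RNA-seq (left) and footprints (right), with OPCs in purple and oligodendrocytes in blue, replicate 1 as filled circles and replicate 2 as open triangles. For 22 members both blue points lie to the right of both purple points in RNA-seq and for 3 (Rab5if, Rab3ip, Rab38) to the left; points at the far left edge are values listed at 0.

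The Rab GTPases held 16 of the 25 calls in RNA-seq and 12 of the 26 in footprints. Of 35 tested in RNA-seq, 15 rose and 1 fell, and of 31 tested in footprints, 11 rose and 1 fell. Of all transcripts, 13.0% rose and 20.2% fell in RNA-seq, and 12.8% rose and 10.8% fell in footprints. The median log2 fold change of the Rabs was 0.41 in RNA-seq and 0.63 in footprints. Among Rabs called in both kinds of library, the largest changes were those of Rab33a, Rab7b, Rab3a and Rab4b, which rose, and of Rab38, which was listed above 0 only in OPCs.

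Rab33a is a Golgi Rab that also acts in vesicle transport to the plasma membrane of growing axons. Its canonical transcript has 2 exons on the plus strand at chrX:48519285-48530232 (GRCm38). Rab33a RNA was at 2.24 and 0 FPKM in OPCs and at 77.6 and 60.9 FPKM in oligodendrocytes, and its footprints were at 6.55 and 1.26 FPKM against 152 and 139 FPKM. All oligodendrocyte libraries lay above all OPC libraries of the same kind. The log2 fold change came to 7.15 ± 1.37 (SE) in RNA-seq (adjusted p = 0.0132) and 5.59 ± 0.83 in footprints (adjusted p = 0.0192, limma), and the RNA-seq value depended on the pseudocount because of the listed 0, being 5.28 with 1 FPKM and 8.84 with 0.01 FPKM. In RNA-seq the Rab33a call was lost without oligodendrocyte replicate 1 or 2. The Rab33a footprint call was lost without either of these and without the variance trend (adjusted p = 0.0538). Its paralog Rab33b, which sits on the Golgi and takes part in autophagosome formation, went from 10.7 and 9.82 FPKM of RNA to 19.3 and 15.8 FPKM (log2 fold change 0.76 ± 0.22, adjusted p = 0.0458). The 250 bases before the RefSeq start of Rab33a, shown because it was the member with the largest rise in RNA-seq, lie on the plus strand of GRCm38.p6 at chrX:48519035-48519284.
Rab33a: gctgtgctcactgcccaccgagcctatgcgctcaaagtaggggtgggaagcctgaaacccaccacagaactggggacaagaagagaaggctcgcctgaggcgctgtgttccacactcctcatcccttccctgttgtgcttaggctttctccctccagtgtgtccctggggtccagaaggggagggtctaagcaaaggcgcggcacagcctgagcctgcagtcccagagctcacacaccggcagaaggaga
This window held none of the 5 motifs searched on both strands, which were AGGTCA (the half-site of thyroid hormone receptors), CTGGCAC and CTGGTAC (both forms of the core bound by the oligodendrocyte factor MYRF), ACAAAG (a SOX core) and CACGTG (the E-box core bound by TFEB and other bHLH factors). Among the 86 members with such a window, 4 held AGGTCA, 3 CTGGCAC, none CTGGTAC, 8 ACAAAG and 6 CACGTG, while of 32851 windows of all genes 14.0%, 4.19%, 1.83%, 16.5% and 6.02% did.

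Rab7b works between late endosomes and the trans-Golgi network, while its relative Rab7 governs the fusion of late endosomes with lysosomes. Rab7b lies on the plus strand at chr1:131688695-131715439 with 6 exons. Its RNA stood at 0.0816 and 0.111 FPKM in OPCs and at 15.02 and 17.05 FPKM in oligodendrocytes. Its footprints were listed at 0 in both OPC libraries and stood at 53.5 and 67.7 FPKM in oligodendrocytes. The groups were far apart in both kinds of library, and the change passed the test in both (adjusted p = 0.00111 in RNA-seq and 0.00607 in footprints), with no fold given in footprints because the OPC group was listed at 0. Rab7 RNA was at 48.2 and 47.6 FPKM in OPCs and at 58.5 and 39.8 FPKM in oligodendrocytes, which overlapped (log2 fold change 0.01 ± 0.22, adjusted p = 0.974). Rab7 footprints were higher, at 274 and 283 FPKM against 355 and 376 FPKM, without passing the test (log2 fold change 0.39 ± 0.10, adjusted p = 0.0644; with the replicate block it passed). Rab7b thus went from 0.169% and 0.233% of the summed RNA of the pair in OPCs to 20.42% and 29.98% in oligodendrocytes, and from 0% to 13.1% and 15.3% of its footprints.

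Rab3a, which controls the docking of secretory and synaptic vesicles before regulated exocytosis, lies on the plus strand at chr8:70754711-70758635. Its RNA was at 10.2 and 8.58 FPKM in OPCs and at 57.9 and 49.3 FPKM in oligodendrocytes, and its footprints were at 36.1 and 34.5 FPKM against 253 and 396 FPKM. Its oligodendrocyte values were the highest of all 5 secretory Rabs listed. On the log2 scale it rose by 2.50 ± 0.20 in RNA-seq (5.66-fold, adjusted p = 0.00117) and 3.16 ± 0.25 in footprints (8.95-fold, adjusted p = 0.00702). The footprint log2 fold change of Rab3a lay between 2.84 and 3.48 over the alternatives run. The related Rab3d reached 2.46 and 1.98 FPKM of RNA in oligodendrocytes from 1.17 and 0.783 FPKM in OPCs and did not pass the test (adjusted p = 0.169). Rab27b, another Rab of secretory vesicles, was at 0.214 and 0.469 FPKM of RNA against 1.25 and 3.38 FPKM (adjusted p = 0.0758), and Rab27a and Rab26 were at or under 1.94 FPKM in every RNA library. The footprints of Rab26 and Rab27a were listed at 0 in all 4 libraries and those of Rab27b in 3.

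Of 10 Rabs of recycling and the plasma membrane, 4 rose in RNA-seq (Rab4a, Rab4b, Rab11a and Rab15), and 3 of 9 tested rose in footprints, where 13.0% and 12.8% of all transcripts did. Rab4a and Rab4b return receptors from early endosomes to the plasma membrane. Rab4b RNA went from 5.62 and 3.46 FPKM to 26.7 and 20.2 FPKM (log2 fold change 2.37 ± 0.32, 5.18-fold, adjusted p = 0.00475) and its footprints from 13.8 and 19.1 FPKM to 71.9 and 74.0 FPKM (log2 fold change 2.16 ± 0.22, adjusted p = 0.00985). Of the 1192 bases of its transcript, 1016 are shared on the same strand with the gene model Gm21983, and reads of these models cannot be told apart. Rab4a RNA went from 12.0 and 10.6 FPKM to 40.9 and 32.9 FPKM (log2 fold change 1.69 ± 0.21, 3.23-fold, adjusted p = 0.00363), with footprints at 24.7 and 29.7 FPKM against 97.7 and 86.6 FPKM (adjusted p = 0.00895). The pair rose together in both kinds of library, and Rab4b made up 31.8% and 24.7% of its RNA in OPCs and 39.6% and 38.1% in oligodendrocytes. Without OPC replicate 2 the adjusted p in RNA-seq was 0.0654 for Rab4b and 0.065 for Rab4a, and without OPC replicate 1 it was 0.0507 for Rab4a.

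Rab11a, the Rab of the recycling endosome, was at 35.4 and 53.6 FPKM of RNA in OPCs and at 78.5 and 90.0 FPKM in oligodendrocytes (log2 fold change 0.95 ± 0.24, adjusted p = 0.0291), and rose in footprints by 0.99 ± 0.22 on the log2 scale (adjusted p = 0.0449). The footprint call was lost with a pseudocount of 0.01 FPKM (0.0501), no filter (0.0505), median-ratio scaling (0.0767) and no trend (0.114). It was also lost without oligodendrocyte replicate 2. Its RNA call was lost without any 1 of the 4 libraries (adjusted p between 0.0593 and 0.142). Rab15, which also acts in recycling, rose in RNA-seq from 1.35 and 1.69 FPKM to 4.86 and 4.62 FPKM (log2 fold change 1.59 ± 0.40, adjusted p = 0.0308), yet its footprints were listed at 0 in 3 of 4 libraries. Rab35, which acts at the plasma membrane, was at 35.6 and 37.0 FPKM of RNA against 26.7 and 39.0 FPKM and did not pass the test (log2 fold change -0.17 ± 0.23, adjusted p = 0.589). Rab11b, Rab12, Rab14 and Rab8a did not pass the test in either kind of library, with log2 fold changes in RNA-seq between 0.10 and 0.34, although the footprints of Rab14 passed with the replicate block (adjusted p = 0.0325).

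Rab13, known from traffic to tight junctions, differed between the oligodendrocyte cultures. Its RNA stood at 15.5 and 8.19 FPKM in OPCs, at 6.07 FPKM in oligodendrocyte replicate 1 and at 0 in replicate 2, and its footprints at 39.3 and 34.8 FPKM, then at 12.4 FPKM and 0. Both oligodendrocyte cultures lay below both OPC cultures in each kind of library without passing the test (adjusted p = 0.152 and 0.22). The RNA-seq change passed with the replicate block. Rab29, a Rab of the Golgi and lysosomes, was likewise at 5.32 and 4.69 FPKM of RNA in OPCs and at 4.05 FPKM and 0 in oligodendrocytes (adjusted p = 0.21).

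Rab38, best known for its part in the making of melanosomes and other lysosome-related organelles, was the clearest fall. It lies on the plus strand at chr7:88430273-88491572 with 3 exons. Its RNA stood at 4.63 and 12.7 FPKM in OPCs and its footprints at 13.3 and 33.1 FPKM, and both were listed at 0 in all 4 oligodendrocyte libraries. The fall passed the test in both kinds (adjusted p = 0.00434 and 0.0128). No fold is given against a group listed at 0. The RNA-seq call was lost without OPC replicate 2 and the footprint call without oligodendrocyte replicate 2. Rab39b, an X-linked Rab of neurons, rose in RNA-seq from 7.58 and 9.57 FPKM to 14.5 and 15.6 FPKM (adjusted p = 0.0471, and 0.0504 to 0.0688 with a pseudocount of 0.01 FPKM, no filter or no trend) and in footprints from 11.2 and 14.9 FPKM to 30.9 and 30.2 FPKM (adjusted p = 0.0381; 0.0673 with the replicate block). Rab9, which returns receptors from late endosomes to the Golgi, was at 38.6 and 46.5 FPKM of RNA against 31.6 and 26.3 FPKM and did not pass the test (log2 fold change -0.55 ± 0.19, adjusted p = 0.0747).

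Of 9 Rabs of the endoplasmic reticulum and Golgi, 5 rose in RNA-seq (Rab33a, Rab6b, Rab2b, Rab2a and Rab33b) and 3 of 8 tested in footprints, against 13.0% and 12.8% of all transcripts. Rab2a and Rab2b act on membranes between the endoplasmic reticulum and the Golgi. Rab2b RNA went from 5.45 and 6.37 FPKM to 15.1 and 15.8 FPKM and its footprints from 14.6 and 16.6 FPKM to 57.4 and 56.7 FPKM. The replicates lay close together and the groups apart, and the log2 fold change came to 1.38 ± 0.24 in RNA-seq (2.60-fold, adjusted p = 0.00958) and 1.87 ± 0.18 in footprints (3.64-fold, adjusted p = 0.00859). The RNA-seq call of Rab2b was lost without OPC replicate 1, OPC replicate 2 or oligodendrocyte replicate 2, and the footprint call without oligodendrocyte replicate 2. Of the 2906 bases of the Rab2b transcript, 2254 overlap genes of the other strand, Tox4 and Gm43766. The methods text states no strand option for the counting, and whether their reads were kept apart was not tested. The more abundant Rab2a went from 99.9 and 109 FPKM of RNA to 179 and 174 FPKM (log2 fold change 0.76 ± 0.14, adjusted p = 0.013). Rab2b was the smaller part of the pair, with 5.17% and 5.52% of its RNA in OPCs and 7.79% and 8.36% in oligodendrocytes. Rab6b, the neuron-enriched form of the Golgi Rab Rab6a, rose in RNA-seq from 2.74 and 1.98 FPKM to 8.35 and 6.61 FPKM (log2 fold change 1.63 ± 0.36, adjusted p = 0.0204) and did not pass in footprints (0.77 ± 0.54, adjusted p = 0.35). Rab6a and Rab1a, the abundant Rabs of this route, were at 98.3 to 127 FPKM and 106 to 133 FPKM of RNA in all libraries and did not pass the test (log2 fold changes 0.26 ± 0.15 and 0.21 ± 0.15).

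Among the remaining Rabs and Rab partners, Rab40c, which carries a SOCS box and works with a ubiquitin ligase, rose in RNA-seq from 6.49 and 7.16 FPKM to 14.4 and 12.7 FPKM (log2 fold change 0.97 ± 0.24, adjusted p = 0.0274) and in footprints by 1.49 ± 0.27 (adjusted p = 0.0294). The Rab40c footprint call was lost without the variance trend (0.0614). Rab34, which takes part in making cilia, went from 29.0 and 27.8 FPKM of RNA to 42.2 and 43.5 FPKM (adjusted p = 0.0367), while its footprints, at 38.4 and 42.5 FPKM against 57.9 and 39.9 FPKM, overlapped (log2 fold change 0.25 ± 0.24, adjusted p = 0.473). Rab5c of the early endosome went from 87.8 and 86.6 FPKM of RNA to 121 and 120 FPKM (adjusted p = 0.0498). This call was lost without any 1 of the libraries and with no filter on low values (0.0557). Rab5c footprints rose by 0.76 ± 0.11 on the log2 scale (adjusted p = 0.0185). That call was lost with median-ratio scaling (0.0522), without the variance trend (0.0879) and without oligodendrocyte replicate 2. Rab3ip, the exchange factor that loads Rab8 with GTP, fell in RNA-seq from 25.7 and 34.7 FPKM to 12.2 and 15.3 FPKM (log2 fold change -1.12 ± 0.24, adjusted p = 0.0186) and in footprints from 41.5 and 38.8 FPKM to 17.8 and 19.2 FPKM (adjusted p = 0.0228). Rab5if fell from 158 and 156 FPKM of RNA to 99.9 and 88.2 FPKM (log2 fold change -0.74 ± 0.15, adjusted p = 0.015). In footprints Rab5if fell by 0.71 on the log2 scale (adjusted p = 0.0253). Without the variance trend the calls of Rab3ip (0.0505 and 0.0511) and Rab5if (0.0646 and 0.102) were lost in both kinds. The Rab11 effector Rab11fip4 was at 1.10 and 0.576 FPKM of RNA against 2.33 and 2.51 FPKM (adjusted p = 0.105), and its footprints were listed at 0 in 3 of 4 libraries. Rab43 RNA, at 0.585 and 1.85 FPKM against 0.402 and 1.69 FPKM, overlapped, and its footprints were listed at 0 in both oligodendrocyte libraries. Of the 4605 bases of Rab43, 4164 are shared on the same strand with Gm45140, and reads of these models cannot be told apart. Of the 1045 bases of Rab5if, 532 overlap Sla2 on the other strand.

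**Figure D2:**
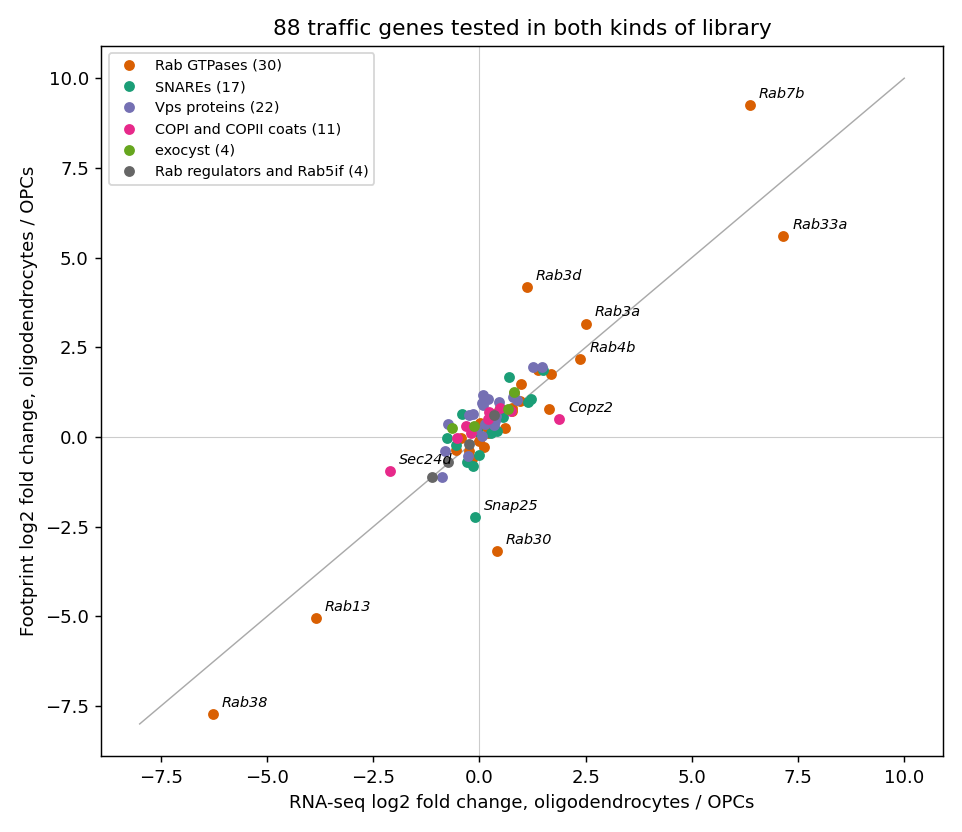
Log2 fold change of the 88 members tested in both kinds of library, RNA-seq on the horizontal and footprints on the vertical axis, coloured by class, with the grey diagonal where both are equal. Most members lie within a short distance of 0, and Rab7b, Rab33a, Rab3d, Rab3a and Rab4b at the upper right and Rab38 and Rab13 at the lower left lie farthest from it, of which Rab3d and Rab13 did not pass the test; changes of genes with values listed at 0 depend on the pseudocount of 0.1 FPKM.

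SNAREs on opposed membranes form the bundle that drives fusion. Of 19 tested in RNA-seq, 2 rose (Stx2 and Stx5a) and 0 fell in the limma test, with 5 higher and 1 lower at an unadjusted p under 0.05, and the median log2 fold change was -0.01. Of 18 tested in footprints, 5 rose (Stx16, Vamp2, Stx5a, Stx8 and Snap47) and 0 fell, with 7 higher and 0 lower at an unadjusted p under 0.05. Of all transcripts, 13.0% rose and 20.2% fell in RNA-seq, while 12.8% rose and 10.8% fell in footprints. At an unadjusted p under 0.05, 17.2% of all were higher in RNA-seq and 19.4% in footprints. The median footprint log2 fold change of the SNAREs was 0.18.

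Vamp2 and Vamp3 are vesicle SNAREs for exocytosis, Vamp2 at synapses and Vamp3 in recycling endosomes, and both are known to act in the delivery of myelin membrane. Vamp2 footprints rose from 70.7 and 72.2 FPKM to 162 and 138 FPKM (log2 fold change 1.06 ± 0.13, 2.09-fold, adjusted p = 0.0143). Vamp2 RNA was at 12.0 and 5.73 FPKM in OPCs and at 21.98 and 17.13 FPKM in oligodendrocytes, above both OPC cultures without passing the test (log2 fold change 1.22 ± 0.39, adjusted p = 0.0582), which it passed with the replicate block. Vamp3 RNA was at 66.8 and 75.8 FPKM in OPCs and at 57.0 and 41.6 FPKM in oligodendrocytes (log2 fold change -0.55 ± 0.20, adjusted p = 0.09), and its footprints at 290 and 259 FPKM against 243 and 223 FPKM (adjusted p = 0.239). Vamp3 values were lower in both oligodendrocyte cultures and those of Vamp2 higher, so that Vamp2 made up 15.2% and 7.03% of the RNA of the pair in OPCs and 27.8% and 29.2% in oligodendrocytes, and 19.6% and 21.8% against 39.9% and 38.2% of its footprints. Without the variance trend the adjusted p of the Vamp2 footprints was 0.0596. Of the other vesicle SNAREs, Sec22b, which works between the endoplasmic reticulum and the Golgi, was between 28.5 and 32.9 FPKM of RNA in all libraries. Vamp1, a relative of Vamp2, was listed at 0 in every footprint library, and Vamp5 was listed above 0 only in oligodendrocyte replicate 1, at 2.30 FPKM of RNA and 5.89 FPKM of footprints. Stx12, an endosomal syntaxin, was at 39.9 and 54.2 FPKM of RNA against 46.7 and 42.3 FPKM, which overlapped.

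Among the syntaxins, Stx2 at the plasma membrane rose in RNA-seq from 4.67 and 4.64 FPKM to 16.13 and 11.04 FPKM (log2 fold change 1.5 ± 0.29, 2.83-fold, adjusted p = 0.0141). Its footprints were at 1.92 and 2.37 FPKM against 10.4 and 6.14 FPKM and did not pass the test (1.86 ± 0.56, adjusted p = 0.0897). The window before its RefSeq start on the minus strand at chr5:129008573-129008822 (GRCm38.p6) is shown because it was the one window with AGGTCA among the 17 members that rose in RNA-seq and had such a window, and the match, in capitals, reads on the opposite strand.
Stx2: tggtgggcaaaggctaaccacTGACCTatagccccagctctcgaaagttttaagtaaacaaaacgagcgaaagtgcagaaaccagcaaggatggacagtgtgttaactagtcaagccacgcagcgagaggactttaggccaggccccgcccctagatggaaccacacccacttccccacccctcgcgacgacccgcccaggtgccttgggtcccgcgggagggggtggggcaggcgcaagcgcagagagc
Stx5a, the SNARE of the Golgi entry face, rose in RNA-seq from 19.6 and 12.7 FPKM to 38.6 and 31.5 FPKM (log2 fold change 1.14 ± 0.26, adjusted p = 0.0234). Its footprints rose from 39.3 and 48.8 FPKM to 85.4 and 85.9 FPKM (0.97 ± 0.16, adjusted p = 0.0253). Both Stx5a calls were lost without the variance trend (0.0636 and 0.0767). Stx16 of the trans-Golgi network rose in footprints from 12.5 and 9.64 FPKM to 32.2 and 38.5 FPKM (1.67 ± 0.26, 3.19-fold, adjusted p = 0.021), while its RNA, at 17.8 and 13.3 FPKM against 29.7 and 21.2 FPKM, did not pass the test (0.70 ± 0.26, adjusted p = 0.0875; it passed with the replicate block). Stx4a, a plasma membrane syntaxin, had overlapping RNA values of 17.2 and 8.62 FPKM and of 13.4 and 7.37 FPKM (adjusted p = 0.632). Stx1a, a syntaxin of synaptic exocytosis, did not pass the test in RNA-seq (log2 fold change -0.04, adjusted p = 0.968). Stx8 of late endosomes rose in footprints from 45.5 and 49.9 FPKM to 76.9 and 72.1 FPKM (0.64 ± 0.14, adjusted p = 0.0415, 0.0709 with the replicate block and 0.112 without the variance trend), and its RNA at 3.52, 3.92, 6.78 and 1.09 FPKM overlapped.

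Snap23, Snap25 and Snap47 belong to the family that gives the target membrane its paired SNARE helices. Snap47 footprints rose from 65.96 and 65.39 FPKM to 99.3 and 94.7 FPKM (log2 fold change 0.56 ± 0.12, adjusted p = 0.0394, and 0.061 with the replicate block). That call was also lost with median-ratio scaling (0.056) and without the variance trend (0.126). Snap47 RNA was at 29.0 and 28.4 FPKM against 39.4 and 45.2 FPKM (0.55 ± 0.17, adjusted p = 0.0519, and 0.0468 with the replicate block). Both oligodendrocyte cultures were above both OPC cultures in each kind of library. Snap23, the widespread form, was at 20.3 and 19.3 FPKM of RNA against 26.8 and 21.2 FPKM (adjusted p = 0.346). Snap25, the neuronal form, was between 0.809 and 1.58 FPKM of RNA in all libraries, and these values overlapped.

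**Figure D3:**
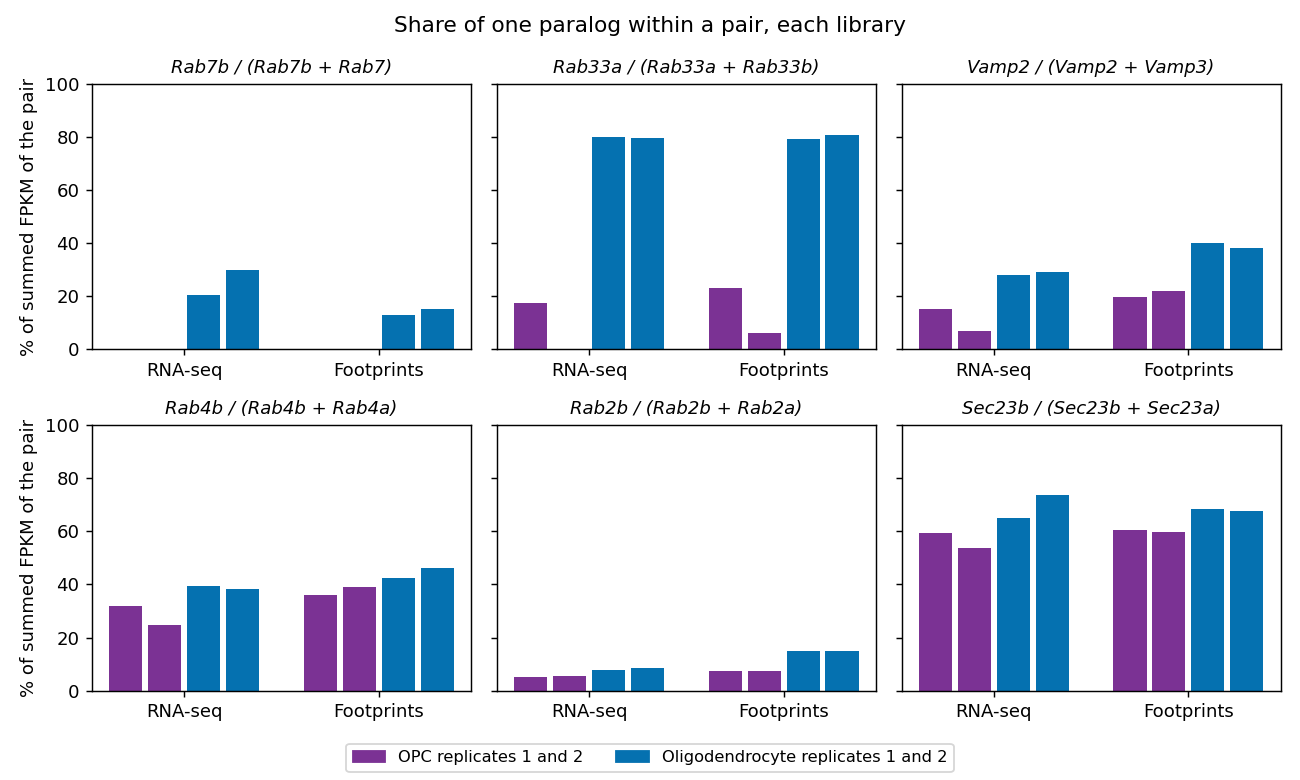
Share of the first named gene in the summed FPKM of a pair, in percent, in each of the 4 RNA-seq and 4 footprint libraries, with OPC replicates 1 and 2 in purple and oligodendrocyte replicates 1 and 2 in blue. Rab7b and Rab33a go from at most 23.1% of their pair in OPCs to between 13.1% and 80.9% in oligodendrocytes. All 6 pairs shown have both oligodendrocyte bars above both OPC bars of the same kind. They are a selection from 15 pairs, and not every pair went this way. Rab11b, for instance, went from 14.7% and 11.4% of its RNA pair with Rab11a in OPCs to 8.65% and 7.2% in oligodendrocytes.

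Of 11 tested coat members, 2 rose in RNA-seq (Cope and Copz2) and 2 in footprints (Cope and Sec23b), where 13.0% and 12.8% of all transcripts did. In either limma test 0 fell, where 20.2% of all transcripts did in RNA-seq and 10.8% in footprints. At an unadjusted p under 0.05, 3 were higher and 0 lower in RNA-seq, and 5 were higher and 0 lower in footprints. Of all transcripts, 45.3% in RNA-seq and 38.0% in footprints were reached in either direction, and 17.2% and 19.4% of all were higher. Cope, the epsilon subunit of COPI, went from 50.5 and 54.7 FPKM of RNA to 83.9 and 91.7 FPKM (log2 fold change 0.74 ± 0.15, 1.67-fold, adjusted p = 0.0169) and from 195 and 195 FPKM of footprints to 309 and 331 FPKM (0.71 ± 0.10, adjusted p = 0.018). Both calls were lost without the variance trend (0.065 and 0.0907) and without oligodendrocyte replicate 2. The RNA-seq call was also lost without either OPC replicate. The alpha subunit Copa was at 50.7 and 51.8 FPKM of RNA against 59.3 and 58.8 FPKM (0.20 ± 0.15, adjusted p = 0.325), the beta-prime subunit Copb2 at 66.8 and 64.1 FPKM against 60.6 and 53.2 FPKM (-0.20 ± 0.16, adjusted p = 0.351), and the gamma subunit Copg1 at 37.3 and 42.7 FPKM against 48.5 and 44.4 FPKM (0.22 ± 0.17, adjusted p = 0.355). Subunits of a single coat thus lay on both sides of 0 in RNA-seq, and Copb2 alone was lower in both oligodendrocyte cultures. In footprints all 5 COPI members had a log2 fold change above 0, between 0.11 and 0.71, and Copg1 (adjusted p = 0.052) passed there with the replicate block (0.0317), with a filter of 5 FPKM (0.0427) and with a pseudocount of 1 FPKM (0.0443). Copz2, one of the alternative zeta subunits, rose in RNA-seq from 1.14 and 1.38 FPKM to 4.17 and 5.73 FPKM (1.88 ± 0.43, adjusted p = 0.0231), and its footprints were listed at 0 in OPC replicate 1 and oligodendrocyte replicate 2.

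Sec23 and Sec24 form the inner layer of COPII, in which Sec24 binds the cargo. Sec23b rose in footprints from 44.8 and 52.5 FPKM to 83.2 and 87.3 FPKM (log2 fold change 0.81 ± 0.15, 1.75-fold, adjusted p = 0.029). Its RNA was at 27.9 and 30.9 FPKM against 41.8 and 40.8 FPKM (0.49 ± 0.16, adjusted p = 0.0665). The footprint call of Sec23b was lost without the variance trend (0.0891) and without either oligodendrocyte replicate. Its paralog Sec23a was at 19.1 and 26.8 FPKM of RNA against 22.5 and 14.6 FPKM, which overlapped. Sec23b made up 59.3% and 53.6% of the RNA of the pair in OPCs and 65.0% and 73.7% in oligodendrocytes. Sec24d RNA was at 9.57 and 6.19 FPKM in OPCs, at 5.18 FPKM in oligodendrocyte replicate 1 and at 0.523 FPKM in replicate 2 (-2.10 ± 0.98, adjusted p = 0.152), and its footprints at 16.4 and 13.1 FPKM against 9.55 and 5.90 FPKM (adjusted p = 0.167). It passed in RNA-seq with the replicate block. Sec24a and Sec24b had overlapping RNA values, with log2 fold changes of 0.30 ± 0.30 and -0.53 ± 0.36.

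**Figure D4:**
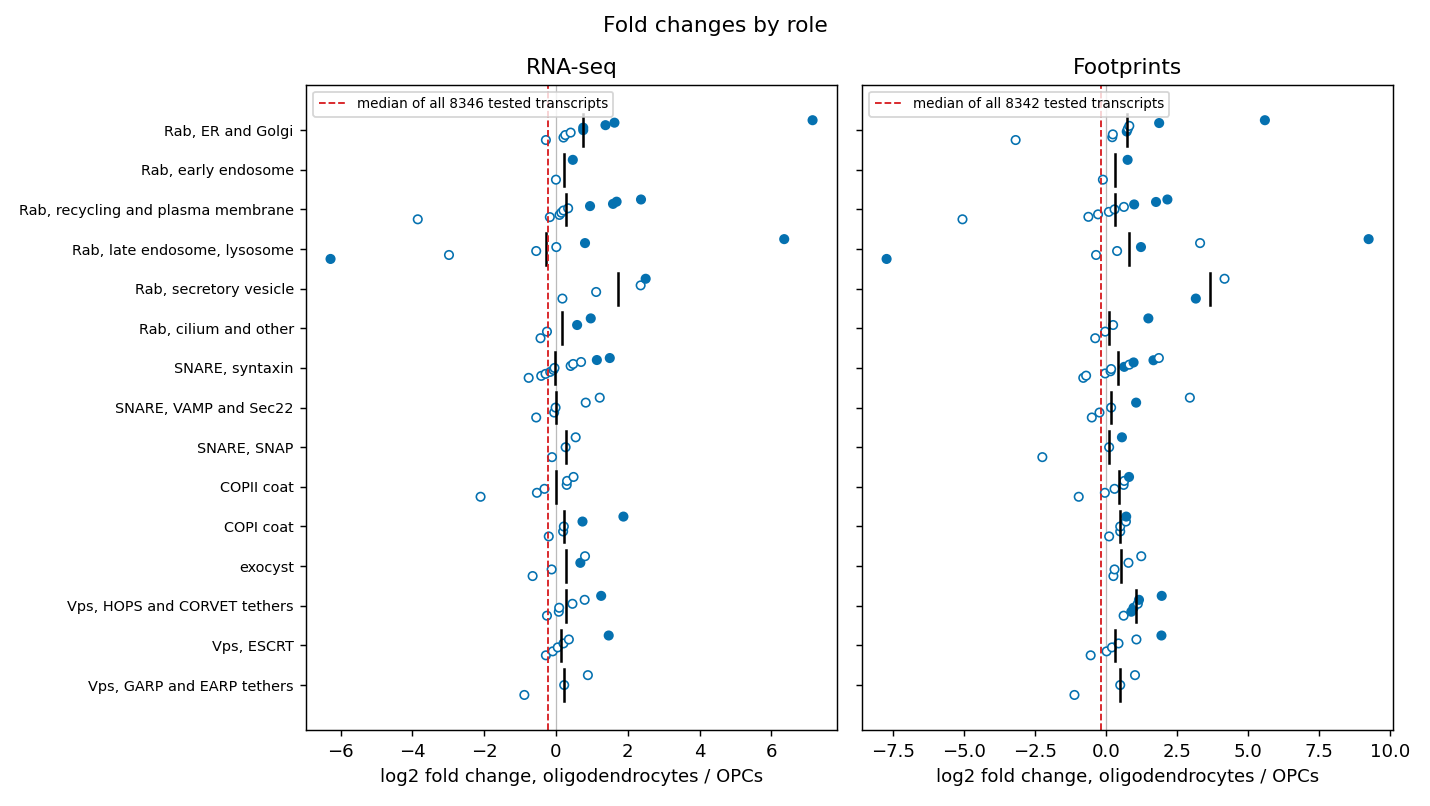
Log2 fold change of each tested member (points, filled where the test was passed) in 15 role groups, in RNA-seq (left) and footprints (right), with the median of each group as a black bar and the median of all tested transcripts as a red dashed line at -0.23 and -0.16. In footprints the medians of the 15 groups drawn lie right of the red line, and in RNA-seq all but that of the late endosomal Rabs, at -0.27. Groups not drawn include the Rab regulators, with medians of 0.04 in RNA-seq and -0.20 in footprints, and Vps45, Vps72 and Vps9d1, with medians of -0.74 and 0.37.

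The exocyst tethers vesicles to the plasma membrane. Of 4 tested subunits, Exoc4 rose in RNA-seq from 34.1 and 41.1 FPKM to 55.5 and 64.7 FPKM (log2 fold change 0.68 ± 0.18, adjusted p = 0.0363), with footprints at 52.6 and 82.9 FPKM against 106 and 124 FPKM (0.79 ± 0.27, adjusted p = 0.111). Its RNA call was lost without any 1 of the libraries. Exoc6b was at 4.58 and 5.72 FPKM of RNA against 9.62 and 8.49 FPKM (0.81 ± 0.28, adjusted p = 0.0752), and Exoc1 and Exoc7 had log2 fold changes of -0.12 ± 0.19 and -0.65 ± 0.40. In footprints all 4 had a change above 0, and 0 passed the limma test, with 2 at an unadjusted p under 0.05. Of all transcripts, 44.5% had a footprint change above 0, 12.8% rose and 38.0% had an unadjusted p under 0.05, and 13.0% rose in RNA-seq.

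The HOPS and CORVET complexes tether late and early endosomes and, among the members listed here, share Vps16, Vps18 and Vps33a. Not every subunit of these complexes was listed. Vps39 belongs to HOPS and Vps8 to CORVET, and Vps33b, a homolog of Vps33a, works in another complex. In footprints 4 of these 6 rose (Vps39, Vps8, Vps33a and Vps16) and 0 fell, with a median log2 fold change of 1.04, and in RNA-seq 1 rose (Vps39), with a median of 0.28. At an unadjusted p under 0.05, 5 were higher and 0 lower in footprints. Of all transcripts, 12.8% rose and 10.8% fell in footprints, and 19.4% were higher there at an unadjusted p under 0.05. In RNA-seq 13.0% of all transcripts rose. Without the variance trend Vps39 alone passed in footprints (adjusted p = 0.027), with Vps33a, Vps16 and Vps8 at 0.0578 to 0.0743. This list was singled out after its footprint values were seen.

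Vps39 went from 4.18 and 4.42 FPKM of RNA to 12.8 and 8.49 FPKM (log2 fold change 1.26 ± 0.31, adjusted p = 0.0294) and from 7.32 and 7.38 FPKM of footprints to 27.4 and 30.3 FPKM (1.96 ± 0.25, 3.88-fold, adjusted p = 0.0146). Vps33a footprints went from 23.1 and 23.7 FPKM to 44.7 and 47.1 FPKM (0.97 ± 0.16, adjusted p = 0.0237), with RNA at 9.53 and 10.8 FPKM against 16.2 and 12.1 FPKM (0.46 ± 0.25, adjusted p = 0.201). For both genes each oligodendrocyte culture lay above each OPC culture. Vps16 footprints went from 31.0 and 33.9 FPKM to 57.0 and 63.6 FPKM (0.89 ± 0.15, adjusted p = 0.0266), while its RNA was at 24.1 and 22.1 FPKM against 25 and 23.8 FPKM, which overlapped (0.08 ± 0.18, adjusted p = 0.742). Vps8 footprints went from 12.6 and 13.5 FPKM to 34.1 and 25.2 FPKM (1.16 ± 0.26, adjusted p = 0.0459, and 0.0821 with the replicate block), with overlapping RNA at 11.9 and 12.0 FPKM against 17.6 and 9.28 FPKM. The footprint calls of these 4 were all lost without oligodendrocyte replicate 2. Vps18 was at 9.03 and 10.4 FPKM of footprints against 18.9 and 23.6 FPKM (1.12 ± 0.28, adjusted p = 0.0595), and Vps33b at 5.68 and 12.5 FPKM against 10.1 and 16.9 FPKM (adjusted p = 0.446).

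Of the 4 genes of this list with a RefSeq window, 2 held the E-box core CACGTG, Vps16 once and Vps33a at 2 positions. Over the members with a window, 6.98% held CACGTG, close to the 6.02% of all windows, and 0 of the 17 that rose in RNA-seq did. Both are shown, with matches in capitals, because their proteins bind each other in both complexes and their footprints rose together. The window of Vps16 lies on the plus strand at chr2:130424070-130424319 and that of Vps33a on the minus strand at chr5:123573016-123573265 (GRCm38.p6). In Vps33a the further capitals mark ACAAAG.
Vps16: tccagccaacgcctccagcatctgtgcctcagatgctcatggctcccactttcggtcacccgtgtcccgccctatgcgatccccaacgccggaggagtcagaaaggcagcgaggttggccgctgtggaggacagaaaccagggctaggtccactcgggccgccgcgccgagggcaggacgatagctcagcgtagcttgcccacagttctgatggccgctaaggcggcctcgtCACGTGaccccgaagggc
Vps33a: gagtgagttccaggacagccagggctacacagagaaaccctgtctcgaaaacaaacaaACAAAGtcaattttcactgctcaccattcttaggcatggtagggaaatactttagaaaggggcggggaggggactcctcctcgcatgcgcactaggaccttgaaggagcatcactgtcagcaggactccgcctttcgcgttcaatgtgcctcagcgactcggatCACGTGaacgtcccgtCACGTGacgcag
A match of letters is no evidence of binding, and no binding was measured here.

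**Figure D5:**
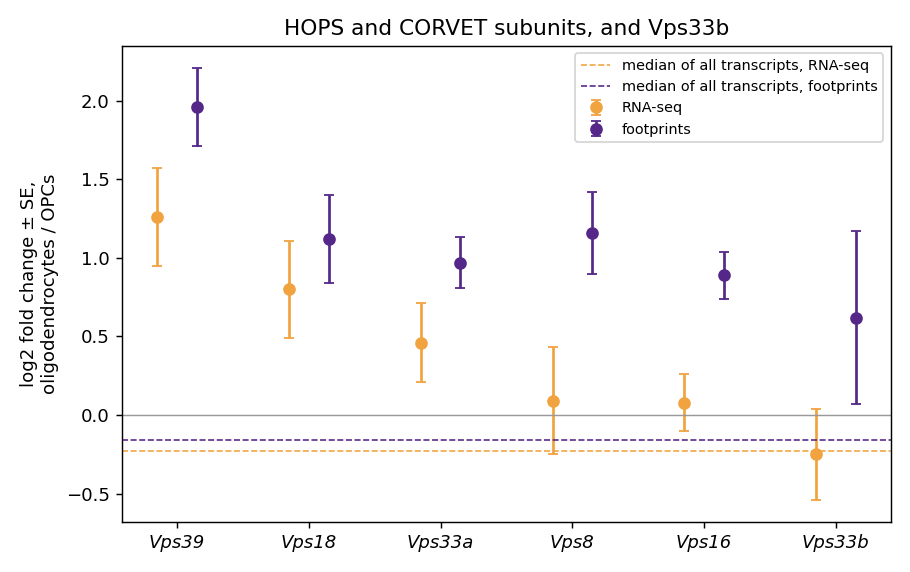
Log2 fold change with its SE for 6 tether subunits in RNA-seq (orange) and footprints (purple), with the medians of all tested transcripts as dashed lines in the same colours. The footprint value lies above the RNA-seq value for all 6, as it did for 57.7% of all transcripts tested in both kinds. The test of that difference passed for none, and the list was singled out after its footprint values were seen.

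Of the 16 other Vps proteins, Vps37b alone was called in either kind of library, where 33.2% of all transcripts were called in RNA-seq and 23.6% in footprints. Vps37b, a subunit of ESCRT-I, rose in RNA-seq from 14.9 and 13.9 FPKM to 38.01 and 42.56 FPKM (log2 fold change 1.47 ± 0.18, 2.77-fold, adjusted p = 0.00358) and in footprints from 29.8 and 27.0 FPKM to 102 and 118 FPKM (1.95 ± 0.15, 3.85-fold, adjusted p = 0.00702). Its groups were widely apart, although 1185 of its 2522 bases overlap Hip1r and Gm37939 on the other strand. The RNA-seq call was lost without OPC replicate 2. The other 5 ESCRT genes (Vps25, Vps36, Vps37d and the ATPases Vps4a and Vps4b) did not pass in either kind, with RNA log2 fold changes between -0.28 and 0.36. Of the 1106 bases of Vps25, 1103 are shared on the same strand with Ramp2, and reads of these models cannot be told apart. Vps29 of the retromer was at 32.0 and 44.3 FPKM of RNA against 46.2 and 49.4 FPKM (0.34 ± 0.21, adjusted p = 0.249), and Vps26c and Vps35l of the related retriever had log2 fold changes of 0.12 ± 0.22 and 0.39 ± 0.24. Among the GARP and EARP tethers, Vps53, which both share, was at 0.89 ± 0.42 and Vps54, found in GARP alone, at -0.88 ± 0.28 in RNA-seq, and neither passed the test (adjusted p = 0.154 and 0.0603; Vps54 passed with the replicate block). Vps72, a nuclear protein of chromatin remodelling that shares the symbol, was at 32.6 and 29.1 FPKM of RNA against 24.5 and 12.6 FPKM (adjusted p = 0.116) and also passed with the block.

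Ribosome density, the ratio of footprint to RNA FPKM, asks whether footprints changed beyond the RNA. In the limma interaction test over all 8 libraries 0 of 88 members passed, as did 1 of 8056 transcripts (0.0124%), and 3 members had an unadjusted p under 0.05 (3.41%, against 4.8% of all), all 3 with a higher density in oligodendrocytes (against 3.34% of all). The median log2 change of the members was 0.23 and that of all transcripts 0.10, and 61 members (69.3%, against 57.7% of all) had a change above 0. The lowest value of this test belonged to Vps16, with a density of 1.29 and 1.54 in OPCs and of 2.28 and 2.67 in oligodendrocytes (log2 change 0.81 ± 0.21, adjusted p = 0.766). Rab7b came next, but its OPC footprints were listed at 0, and Stx16 followed, with 0.702 and 0.724 against 1.08 and 1.81 (0.97 ± 0.38, adjusted p = 0.875). The 6 HOPS, CORVET and Vps33b genes had changes between 0.32 and 1.07 with a median of 0.75, and the lowest adjusted p among them was that of Vps16. These genes were singled out after their footprint values were seen, so their place above 0 is no separate support for a higher density.

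Densities spanned a wide range between genes. Vps54 had the lowest density of the members in all 4 cultures, at 0.147 and 0.185 in OPCs and 0.156 and 0.118 in oligodendrocytes, where the median of the members was between 2.06 and 2.63. Rab11b was at 15.6 and 15.5 in OPCs and at 16.7 and 17.8 in oligodendrocytes, and Stx8 at 12.9 and 12.7 and at 11.3 and 65.9, the last from an RNA level of 1.09 FPKM. Vps45, the Sec1/Munc18 partner of Stx16, had RNA at 8.37 and 9.06 FPKM against 8.06 and 3.33 FPKM and footprints at 17.2 and 22.1 FPKM against 26.6 and 23.8 FPKM, with the group means on opposite sides in the 2 kinds. Neither change nor their difference passed its test (adjusted p = 0.254, 0.322 and 0.875).

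A further list of 144 genes of the same routes, chosen by function outside the symbol rule, had 103 listed. Of 100 tested in RNA-seq, 19 rose and 10 fell (median log2 fold change 0.08), and of 99 tested in footprints, 18 rose and 2 fell (median 0.27). Over all transcripts 13.0% rose and 20.2% fell in RNA-seq, and 12.8% and 10.8% did so in footprints. Clathrin and its adaptors gave 5 rises and 1 fall among 18 genes in RNA-seq. Dnm3, a dynamin that cuts vesicles from the membrane, went from 1.82 and 0.296 FPKM of RNA to 31.5 and 35.8 FPKM (log2 fold change 5.27 ± 0.73, adjusted p = 0.00503). Chmp5 of ESCRT-III went from 59.2 and 65.8 FPKM to 150 and 150 FPKM (1.26 ± 0.15, adjusted p = 0.00313). Tbc1d1, a GTPase-activating protein for Rabs, fell from 29.5 and 27.1 FPKM to 6.38 and 9.76 FPKM (-1.83 ± 0.27, adjusted p = 0.0059), with footprints that did not pass (adjusted p = 0.0972), and Nsf, the ATPase that takes spent SNARE bundles apart, from 12.9 and 14.1 FPKM to 7.81 and 7.19 FPKM (-0.84 ± 0.23, adjusted p = 0.0385). Nsf footprints, at 28.6 and 38.5 FPKM against 33.8 and 24.6 FPKM, overlapped (-0.20 ± 0.27, adjusted p = 0.608), while those of Dnm3 and Chmp5 rose (adjusted p = 0.00447 and 0.0413). These 4 were chosen after their values were seen.

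The members not tested in either kind were Exoc3l, Rab11fip5, Rab17, Rab27a, Rab39, Rab40b and Stx19, all at or under 1.32 FPKM of RNA in every library. Tested members had a median coding length of 832.5 bases, against 1401 bases over all tested transcripts, and the Rab GTPases one of 639 bases. Their median RNA level, 14.0 FPKM, was close to that of all tested transcripts, 12.5 FPKM.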

How the data were processed

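Total RNA and ribosome footprints were sequenced from 2 cultures each of OPCs and oligodendrocytes. The authors deposited FPKM values in 8 columns, and 0 columns were left unmapped. According to the study's methods, they clipped adapters with fastx_clipper, mapped reads to GRCm38 with HISAT2 2.1.0 (version also in the submitters' processing notes) and tabulated FPKM with StringTie 1.3.5 and ballgown on canonical coding transcripts of Gencode, over transcripts for RNA-seq and coding sequence for footprints. The methods text states no strand option. The study's own differential expression used DESeq2 on counts, which FPKM do not give. Depth was estimated from the steps between low FPKM values.

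FPKM were used as deposited, with groups from the labels. In R 4.3.3, log2(FPKM + 0.1) was fitted with limma 3.58.1, using eBayes with a mean-variance trend, for the 4 RNA-seq and the 4 footprint libraries apart, keeping transcripts whose mean reached 1 FPKM. Tests were two-sided, with Benjamini-Hochberg adjustment across every tested transcript and a threshold of 0.05. For ribosome density, 1 model over all 8 libraries tested whether the effect of cell type differed between footprints and RNA. It took the libraries as independent, although the RNA and footprint libraries of a culture shared a lysate. A block for culture was run as an alternative, in which the adjusted p of Vps16 was 0.688 (limma). With 2 against 2 cultures an exact permutation test cannot go below 0.333. Positions came from Gencode vM21 by transcript identifier and promoter windows from RefSeq by symbol, both on GRCm38.

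Members and gene lists were chosen with earlier results of these data known. The rule for named genes took members called in RNA-seq with the same direction in both same-numbered cultures (the 15 largest rises and 15 largest falls), the same for footprints (5 and 5 more), a list with known parts in myelin traffic, exocytosis or coats, the 5 lowest p-values of ribosome density, 1 or 2 members per role, and members listed at 0 throughout a group. Further members named beside these were chosen after their values were seen. The study states that the oligodendrocytes came from the corresponding OPC cultures but not that the replicate numbers match between cell types, and the number was tried as a block on that assumption. Deviations of same-numbered cultures correlated across transcripts at 0.108 in RNA-seq and 0.086 in footprints. Other alternatives changed the pseudocount, filter, scaling, trend and libraries. Some genes are not reported here.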

Additional observations from a re-analysis of the deposited data

How the results depend on the processing

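Among the genes named by rule, the 20 changes called in RNA-seq and the 23 called in footprints kept their sign under every alternative run. With all libraries kept, 14 and 9 of these calls passed under every setting. The kept signs are no separate support. In RNA-seq all called members had both cultures of a group beyond both of the other group. Leaving out a library or changing the pseudocount, filter, trend or block could not turn such a sign. With the replicate block, which assumes that equal numbers mark matching cultures, 7 members fell in RNA-seq in place of 3. Of all transcripts 24.8% fell with the block, in place of 20.2%. The calls the block changed for single genes stand beside their values. Without the trend of variance on abundance, 15 members were called in RNA-seq (14 higher, 1 lower) and 9 in footprints (8 higher, 1 lower). In both kinds 8 were called, and in ribosome density 1 of 88. Of all transcripts, 24.9% were called in RNA-seq, 12.4% in footprints and 0.174% in ribosome density at this setting. Calls in both kinds were not counted over all transcripts under the alternatives, so those counts cannot show an excess. Counts with a library left out rest on 1 culture in a group and are not read as an excess either. Leaving out each library in turn gave between 3 and 20 calls in RNA-seq (3 to 10 higher, 0 to 10 lower), between 0 and 28 in footprints (0 to 19 higher, 0 to 9 lower), between 0 and 9 in both and between 0 and 4 in ribosome density. Median-ratio scaling gave a median density change of 0.07, and leaving out a library gave one between 0.20 and 0.30. The cause was not tested.

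Sign changes were looked up only for the genes named by rule, and none of those that turned sign was called in the main fit. Under median-ratio scaling these were Rab35, Snap25, Stx12 and Stx1a in RNA-seq (0.01, 0.05, 0.12 and 0.13). Sign also turned for some changes when a library was left out. In RNA-seq the latter ranged from -0.44 to 0.10 for Rab35, -1.04 to 0.63 for Rab43, -0.27 to 0.29 for Rab7, -0.36 to 0.55 for Vps8, -0.56 to 0.33 for Snap25, -0.29 to 0.16 for Stx12, -0.49 to 0.41 for Stx1a and -0.79 to 0.20 for Stx4a. In footprints they ranged from -2.78 to 3.79 for Copz2, -0.20 to 0.12 for Sec24b, -0.01 to 0.22 for Snap23, -4.94 to 0.45 for Snap25 and -1.95 to 0.56 for Stx4a. Oligodendrocyte replicate 2 had the lowest estimated depth of each kind of library and listed 21 members at 0 in footprints, and the part of depth in these zeros was not tested.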
